A study of Mus musculus with 8 samples.

Results

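The 10 genes described here encode proteins of the photoreceptor outer segment disc and of the matrix around it: Prph2, Rom1, Prom1, Cdhr1, Fscn2, Tulp1, Rp1, Impg1, Impg2 and Rbp3. They were selected by gene symbol, each symbol occurred on 1 row, and they are 10 of the 26824 genes in the count table. Expression was measured by RNA sequencing in retinas of mice aged 1 month: 3 libraries labelled WT (wild type, WT 1 to WT 3) and 5 labelled KO (Kv8.2 knockout, KO 2 to KO 6). Kv8.2 is the potassium channel subunit of photoreceptors encoded by Kcnv2. Each library was made from 2 pooled retinas, no treatment was given, and strain, sex and the design of the knockout allele are not given in the sources used here. The series text says that the authors left out 2 KO samples without naming them, so all 8 libraries were used.

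The outer segment is a modified cilium filled with stacked membrane discs, which rods and cones renew throughout life. New discs form as folds of the membrane at its base, and their rims are held in a tight curve by tetraspanins. Around the outer segment lies the interphotoreceptor matrix, which anchors the retina to the pigment epithelium and carries retinoids between the 2 tissues.

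Of the 10 genes, Fscn2 and Rbp3 were called higher in the libraries labelled KO, and the other 8 were not called in either direction. Fscn2, an actin bundling protein of photoreceptors, was 1.97-fold higher, and Rbp3, the retinoid binding protein of the matrix, was 1.65-fold higher. A gene was called where edgeR's quasi-likelihood test gave a p-value under 0.05 after Benjamini-Hochberg adjustment over all tested genes. Over all 20167 tested genes 7.58% were called, with 4.74% called higher and 2.84% lower. All 10 genes passed the filter on low counts, with 1281 to 108882 counts per library. The median log2 fold change of the 10 genes was 0.14, beside 0.00 over all tested genes.

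The sequences just before the transcription starts of the called genes, Rbp3 and Fscn2, are shown because these are the genes whose levels differed. They are the 250 bases upstream in RefSeq on GRCm38.p6, 5′ to 3′ on the strand of the gene. The Rbp3 stretch lies at chr14:33953753-33954002 (plus strand), and its capitals mark TAATCC and TGCTGA, each read on the opposite strand. CACCC also lies in this stretch, at -242 and -117, in lower case.
Rbp3: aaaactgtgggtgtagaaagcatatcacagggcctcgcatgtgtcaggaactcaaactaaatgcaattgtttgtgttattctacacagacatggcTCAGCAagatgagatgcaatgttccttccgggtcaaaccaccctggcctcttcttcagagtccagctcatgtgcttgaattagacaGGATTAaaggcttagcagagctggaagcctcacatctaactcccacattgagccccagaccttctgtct
The Fscn2 stretch lies at chr11:120361284-120361533 (plus strand), and its capitals mark CACCC on either strand.
Fscn2: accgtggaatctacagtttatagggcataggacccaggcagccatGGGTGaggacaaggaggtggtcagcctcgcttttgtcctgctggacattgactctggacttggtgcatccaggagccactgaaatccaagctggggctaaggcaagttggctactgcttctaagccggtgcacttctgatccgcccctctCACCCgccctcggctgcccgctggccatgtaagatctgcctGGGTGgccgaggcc

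Upstream sequences were found for 9 of the 10 genes. They were searched on both strands for TAATCC, the core bound by the photoreceptor factors CRX and OTX2, for TAATC, which lies within it, for the homeodomain core TAATTA, for TGCTGA, part of the element bound by MAF family factors such as NRL, and for CACCC, the core bound by KLF and SP factors. TAATCC was found in Rbp3 alone among the 9, at -69 from the start, where 6.25% of all 32851 upstream sequences of this length hold it. TGCTGA was also found in Rbp3 alone, at -155, beside 16.1% of all upstream sequences. Fscn2 held CACCC at -205, -55 and -14, a string present in 52% of all upstream sequences, and none of the other strings. CACCC was present in 6 of the 9, also upstream of Rbp3, Cdhr1, Prom1, Rom1 and Tulp1. TAATC was present upstream of Rbp3, Prph2, Impg1, Impg2 and Prom1, beside 19.8% of all upstream sequences, and TAATTA upstream of Impg2, beside 4.84%. These matches describe the letters in the window and show no binding.

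The libraries labelled KO were not alike, and this bears on every value below. Depth was 17759146 to 25188870 counts per library. Kcnv2 was present in all libraries, at 519 to 551 CPM in WT and 398 to 585 CPM in the libraries labelled KO (log2 fold change -0.24, edgeR adjusted p-value 0.275). KO 2, at 585 CPM, lay above every WT library, and the other 4 lay below all of them. The log2 fold change of Kcnv2 was -0.04 for KO 2 and KO 3 against WT (edgeR adjusted p-value 0.903), -0.38 for KO 4 to KO 6 against WT (called, 0.000116) and -0.35 without KO 2 (called, 0.0298). KO 4 to KO 6 against WT called 8416 of 19678 tested genes, and the fit without KO 2 called 2781 of 20026. Since the transcript was present throughout, libraries are called by their labels. CPM is the count per 1e+06 counts of a library after TMM scaling. Pairs among KO 4, KO 5 and KO 6 differed by a chi-square of 5.38 to 6.28 per degree of freedom over genes, and pairs of WT libraries by 7.41 to 15.7. Pairs that include KO 2 or KO 3 differed by 38.8 to 100. Lens genes were kept in these chi-square values, and their part in them was not tested. Mitochondrial transcripts took 3.03% to 3.70% of counts in KO 4 to KO 6, 5.23% in KO 3, 6.52% in KO 2 and 7.09% to 7.92% in WT. Lens markers (14 genes) took 5.09% of counts in KO 3 and at most 0.149% in any other library. The labels name no batch. KO 2 and KO 3, and KO 4 to KO 6, are therefore also given apart against the same 3 WT libraries, and in the second comparison genotype and whatever else sets KO 4 to KO 6 apart cannot be told apart.

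The labelled tissue was read against marker lists of its cell types, and no rod, cone, Muller glia, bipolar, pigment epithelium or microglia marker was at 0 in any library. The 8 rod markers took 4.27% to 4.47% of counts in WT and 3.63% (KO 3) to 5.2% (KO 5) in the libraries labelled KO. KO 2, KO 4, KO 5 and KO 6, at 4.86% to 5.2%, all lay above every WT library, and KO 3 lay below them. Of the rod markers Sag was called, higher (1.83-fold; edgeR adjusted p-value 0.0169). The 7 cone markers took 0.0960% to 0.116% in WT and 0.0659% to 0.0906% in the libraries labelled KO, with no overlap, and 3 of them were called lower and 1 higher. The 5 microglia markers took 0.0017% to 0.00196% in WT and 0.00222% to 0.00298% in the libraries labelled KO, also with no overlap, and Tmem119 and Csf1r were called higher. Of these 5 markers 4 had a log2 fold change above 0, and P2ry12 did not (-0.067). The 6 Muller glia markers took 0.314% to 0.323% in WT and 0.301% to 0.428% in the libraries labelled KO. All 6 had a log2 fold change above 0, and Sox9 and Kcnj10 were called higher. The 5 bipolar cell markers (0.0963% to 0.124% over all libraries) and the 7 pigment epithelium markers (0.00583% to 0.0123%) overlapped between the groups. In whole retina, fewer photoreceptors and less RNA per photoreceptor cannot be told apart. The 10 genes together took 1.46% to 1.53% of counts in WT, 1.72% in KO 2, 1.30% in KO 3 and 1.71% to 1.83% in KO 4 to KO 6. KO 3 thus had the lowest share of both the rod markers and the 10 genes, and the part of the rod, cone, microglia and Muller glia markers in the values below was not tested.

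**Figure D1:**
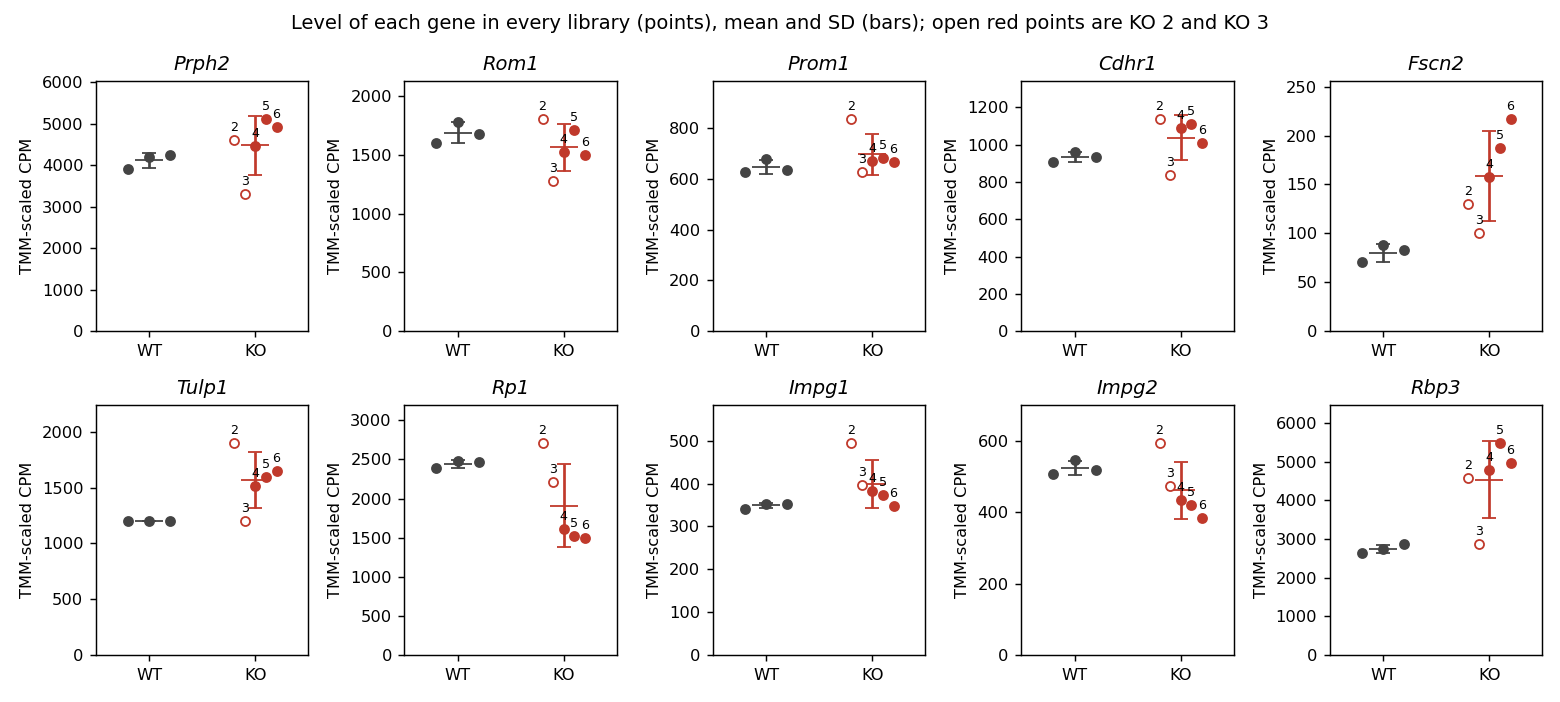
TMM-scaled CPM (vertical axis, from 0) of each of the 10 genes in the 3 WT libraries (grey) and the 5 libraries labelled KO (red, numbered; open for KO 2 and KO 3), with the mean and SD of each group. Fscn2 and Rbp3 lie higher in the libraries labelled KO than in WT, Rp1 is low in KO 4 to KO 6 but not in KO 2, and the WT libraries lie close together.

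Levels were compared between genes as CPM per kilobase of the principal transcript in GENCODE M21. In WT, Prph2 was the most abundant at 1550 ± 68.7 CPM per kilobase, followed by Rom1 at 1110 ± 59.7 (SD, n = 3 for each value in this paragraph). Rp1 (586 ± 12.2), Tulp1 (575 ± 1.57) and Rbp3 (519 ± 21.1) formed the next step. Rp1 and Tulp1 did not differ beyond their spread, and their order was inverted in WT 1. The place of Rp1 depends on the transcript: over its longest coding transcript it was at 356 CPM per kilobase in WT, below Rbp3 and above Cdhr1, so that Rbp3 was then in the fourth place. Below them came Cdhr1 (215 ± 6.43), Prom1 (176 ± 7.68), Impg1 (118 ± 2.25), Impg2 (76.1 ± 2.90) and Fscn2 (46.9 ± 5.28). The span from Fscn2 to Prph2 covered the disc rim protein at the top and the actin bundler at the bottom.

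In the libraries labelled KO the first and the second place were held by the same genes in every library, Prph2 at 1680 ± 264 and Rom1 at 1030 ± 134 CPM per kilobase (SD, n = 5). Rbp3 stood at 857 ± 188 CPM per kilobase (SD, n = 5) and was in the third place in KO 4, KO 5 and KO 6 and in the fourth in KO 2 and KO 3, where it was in the fifth in all 3 WT libraries. Rp1 was in the fifth place in all 5 libraries labelled KO. Over the longest coding transcripts Rbp3 was in the fourth place in WT, KO 2 and KO 3 and in the third in KO 4 to KO 6, and Rp1 was below Cdhr1 in KO 4 to KO 6 (218 to 235 against 233 to 256 CPM per kilobase, lower within each library). Fscn2 stood above Impg2 in KO 4 to KO 6 and below it in KO 2, KO 3 and WT. The coefficient of variation of a gene was 0.273% to 11.3% over the WT libraries and 11.5% to 29.0% over those labelled KO. KO 2 held the highest value of the 8 libraries for 7 of the 10 genes, and KO 3 the lowest for 4.

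Prph2 (peripherin 2; ENSMUSG00000023978, chr17:46910459-46924933, plus strand, GRCm38, 3 exons) forms the disc rim together with Rom1. It was at 3917, 4206 and 4256 CPM in WT 1 to WT 3. In KO 2 to KO 6 it was at 4607, 3311, 4458, 5113 and 4916 CPM, so 4 libraries labelled KO lay above every WT library and KO 3 lay below all of them. This gave a log2 fold change of 0.12 (SE 0.14; edgeR adjusted p-value 0.604). It was -0.06 for KO 2 and KO 3 against WT and 0.24 for KO 4 to KO 6 against WT (adjusted p-values 0.895 and 0.0167).

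Rom1 (ENSMUSG00000071648, chr19:8927391-8929356, minus strand, 3 exons), the related tetraspanin that assembles with Prph2, was at 1603, 1784 and 1680 CPM in WT. It was at 1804, 1277, 1526, 1708 and 1502 CPM in KO 2 to KO 6. The groups overlapped, and the log2 fold change was -0.11 (SE 0.12; edgeR adjusted p-value 0.592). Within each library, the ratio of Rom1 to Prph2 counts needs no scaling. It was 0.409, 0.424 and 0.395 in WT, and 0.392, 0.386, 0.342, 0.334 and 0.306 in KO 2 to KO 6. All 5 libraries labelled KO lay below all 3 WT libraries (0.352 ± 0.0363, n = 5, against 0.409 ± 0.0146, n = 3, SD), but the lowest WT library (0.395) and the highest labelled KO (0.392) nearly met, and KO 4 to KO 6 were the lowest. The ratios were not tested.

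Prom1 and Cdhr1 act where new discs form. Prom1 (prominin 1; ENSMUSG00000029086, chr5:43993620-44102032, minus strand, 27 exons) is a membrane protein of the growing disc edge. It was at 628, 679 and 633 CPM in WT and at 835, 626, 671, 683 and 667 CPM in KO 2 to KO 6, with KO 2 alone far from the rest. Its log2 fold change was 0.11 (SE 0.12; edgeR adjusted p-value 0.580). An antisense gene, Gm16401, overlaps an exon of Prom1, and since counting by strand is not stated, reads of the 2 genes cannot be told apart there. Cdhr1 (a cadherin at the base of the outer segment; ENSMUSG00000021803, chr14:37077857-37098347, minus strand, 17 exons) was at 906, 961 and 933 CPM in WT. It was at 1137, 840, 1092, 1110 and 1008 CPM in KO 2 to KO 6. KO 3 lay below WT and the other 4 above it. The log2 fold change was 0.15 (SE 0.12; edgeR adjusted p-value 0.431), and 0.21 in KO 4 to KO 6 against WT (adjusted p-value 0.0148).

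Fscn2 (fascin 2; ENSMUSG00000025380, chr11:120361534-120368168, plus strand, 5 exons) cross-links actin filaments, and actin drives the start of disc formation. It was at 70.2, 87.7 and 82.9 CPM in WT. It was at 130, 100, 158, 188 and 217 CPM in KO 2 to KO 6. All 5 libraries labelled KO lay above all 3 WT libraries, KO 3 by the least. The WT mean of 80.3 ± 9.04 CPM (SD, n = 3) stood against a KO mean of 159 ± 45.9 CPM (SD, n = 5), for a log2 fold change of 0.98 (SE 0.22; edgeR adjusted p-value 0.0310). KO 2 and KO 3 against WT gave 0.52 (adjusted p-value 0.113), where 0.891% of all tested genes were called. KO 4 to KO 6 against WT gave 1.23 (adjusted p-value 4.6e-06), where 42.8% were called. The call was lost on leaving out any 1 of WT 1, WT 2, WT 3, KO 4, KO 5 or KO 6 (edgeR adjusted p-values 0.0501 to 0.141), while the log2 fold change stayed between 0.84 and 1.06.

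Tulp1 (a tubby-like protein needed for transport of proteins to the outer segment; ENSMUSG00000037446, chr17:28351515-28365222, minus strand, 15 exons) was at 1205, 1199 and 1200 CPM in WT. In KO 2 to KO 6 it was at 1902, 1204, 1517, 1592 and 1646 CPM. KO 3 was at the level of WT and the other 4 libraries labelled KO were above it. This gave a log2 fold change of 0.39 (SE 0.14; edgeR adjusted p-value 0.104). On the same 8 libraries the DESeq2 test and limma voom with quality weights called Tulp1 higher (log2 fold changes 0.39 and 0.38, adjusted p-values 0.0275 and 0.000801). These tests called 3127 and 8248 of all 20167 tested genes, and limma voom gave each library its own weight. Without KO 3 edgeR gave 0.48 and called Tulp1 (adjusted p-value 0.00856), where 3992 of 19920 tested genes were called. KO 2 and KO 3 against WT gave 0.37 (adjusted p-value 0.350), and KO 4 to KO 6 against WT gave 0.41 (adjusted p-value 0.000132).

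Rp1 (ENSMUSG00000025900, chr1:3999557-4409241, minus strand, 30 exons in the principal transcript) binds the microtubules of the outer segment axoneme and keeps discs aligned. It was at 2384, 2477 and 2466 CPM in WT. It was at 2711, 2211, 1611, 1522 and 1495 CPM in KO 2 to KO 6. KO 2 lay above and KO 3 below the WT libraries, and KO 4 to KO 6 were the lowest of all. Over all libraries the log2 fold change was -0.36 (SE 0.19; edgeR adjusted p-value 0.259). Without KO 2 it was -0.51 (SE 0.14) and was called lower (edgeR adjusted p-value 0.0403), where 2781 of 20026 tested genes were called. It was 0.01 (SE 0.16) for KO 2 and KO 3 against WT and -0.65 (SE 0.06; adjusted p-value 6.51e-06) for KO 4 to KO 6 against WT.

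Impg1 and Impg2 are large glycosylated proteins of the interphotoreceptor matrix that bind hyaluronan. Impg1 (ENSMUSG00000032343, chr9:80313330-80465481, minus strand, 17 exons) was at 341, 352 and 353 CPM in WT and at 495, 396, 383, 373 and 347 CPM in KO 2 to KO 6. KO 6 lay within the WT range and the other 4 above it. Impg2 (ENSMUSG00000035270, chr16:56204313-56273756, plus strand, 20 exons), which spans the membrane, was at 508, 547 and 518 CPM in WT and at 594, 472, 435, 419 and 385 CPM in KO 2 to KO 6. KO 2 lay above the WT libraries and the other 4 below them. Neither gene was called, with log2 fold changes of 0.19 (SE 0.12; edgeR adjusted p-value 0.341) for Impg1 and -0.19 (SE 0.14; edgeR adjusted p-value 0.416) for Impg2.

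The ratio of Impg1 to Impg2 counts separated the labels more clearly than either gene. It was 0.672, 0.644 and 0.682 in WT 1 to WT 3, and 0.833, 0.838, 0.880, 0.890 and 0.901 in KO 2 to KO 6. The WT mean was 0.666 ± 0.0195 (SD, n = 3) and the KO mean 0.868 ± 0.0309 (SD, n = 5). The gap between the groups was wider than the range within either of them, and KO 2 and KO 3 lay with KO 4 to KO 6. The difference of the means, 0.202, was 0.191 to 0.211 on leaving out each library in turn. Apart from these 2 ratios, whose groups both did not overlap, no ratio of a gene pair was computed, so how often such a separation occurs is not known here. In KO 2 and KO 3 against WT the log2 fold changes were 0.35 for Impg1 and 0.03 for Impg2 (edgeR adjusted p-values 0.209 and 0.945). In KO 4 to KO 6 against WT they were 0.09 and -0.33 (edgeR adjusted p-values 0.246 and 0.000878).

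**Figure D2:**
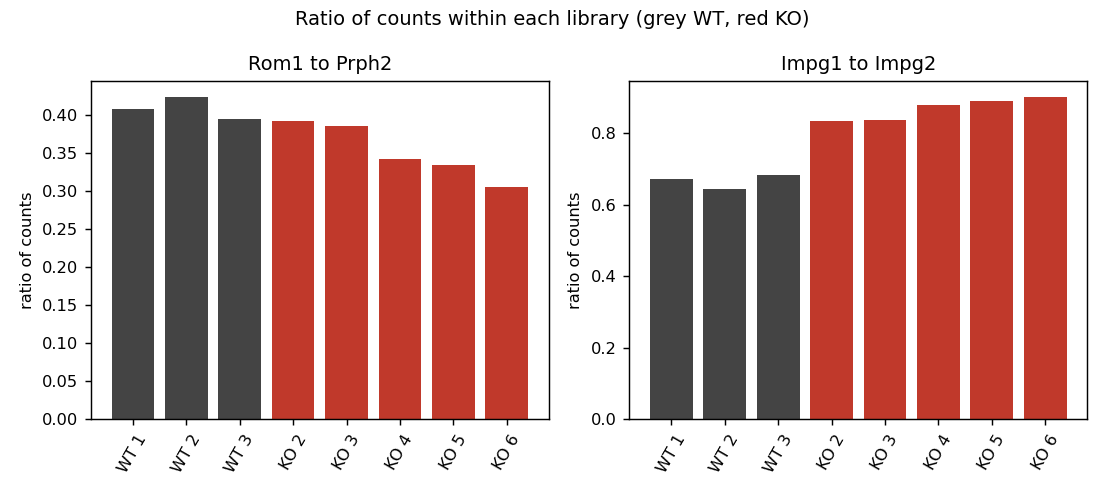
Ratio of counts of Rom1 to Prph2 (left) and of Impg1 to Impg2 (right) in each library (vertical axis from 0; grey WT, red KO; 1 bar per library). The Impg1 to Impg2 ratio lies between 0.644 and 0.682 in WT and between 0.833 and 0.901 in the libraries labelled KO.

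Rbp3 (interphotoreceptor retinoid binding protein; ENSMUSG00000041534, chr14:33954003-33964216, plus strand, 4 exons) is the most abundant soluble protein of the matrix. It was at 2640, 2739 and 2862 CPM in WT, and at 4576, 2866, 4790, 5489 and 4960 CPM in KO 2 to KO 6. Every library labelled KO lay above every WT library, but KO 3 did so only by the difference between 2866 and 2862 CPM, and the other 4 stood well apart from it. The WT mean of 2747 ± 112 CPM (SD, n = 3) stood against a KO mean of 4536 ± 993 CPM (SD, n = 5), for a log2 fold change of 0.72 (SE 0.18; edgeR adjusted p-value 0.0409). Without KO 3 it was 0.86 (SE 0.10; adjusted p-value 0.000923), where 3992 of 19920 tested genes were called. KO 2 and KO 3 against WT gave 0.44 (adjusted p-value 0.304), and KO 4 to KO 6 against WT gave 0.90 (adjusted p-value 2.46e-06). Leaving out any 1 of WT 1, WT 2, WT 3, KO 4, KO 5 or KO 6 ended the call (edgeR adjusted p-values 0.0835 to 0.165), with log2 fold changes of 0.65 to 0.75. Scaling by library size alone and testing with no filter on low counts also ended it (edgeR adjusted p-values 0.0524 and 0.0527).

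In these 10 genes, Fscn2 and Rbp3 were the ones whose groups did not overlap, both with the libraries labelled KO higher, where 20.9% of all tested genes did not overlap in either direction with 10.8% in this one and 10.1% in the other. KO 4 to KO 6 against WT called 7 of the 10, with Prph2, Cdhr1, Fscn2, Tulp1 and Rbp3 higher and Rp1 and Impg2 lower. The share called among all genes in that comparison, 42.8%, was high as well. KO 2 and KO 3 against WT called 0 of the 10 by edgeR, where 180 of 20201 tested genes were called, and at an unadjusted p-value under 0.05 it held 2, Fscn2 and Impg1, beside 19% of all tested genes. Between the libraries numbered 2 and 3 of each group, edgeR called 0 of the 10 with the replicate number as a block and 0 without it, where 0.263% and 0.0707% of all tested genes were called. Fscn2 alone had an unadjusted p-value under 0.05 in either of these fits, beside 9.93% and 11.4% of all tested genes.

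**Figure D3:**
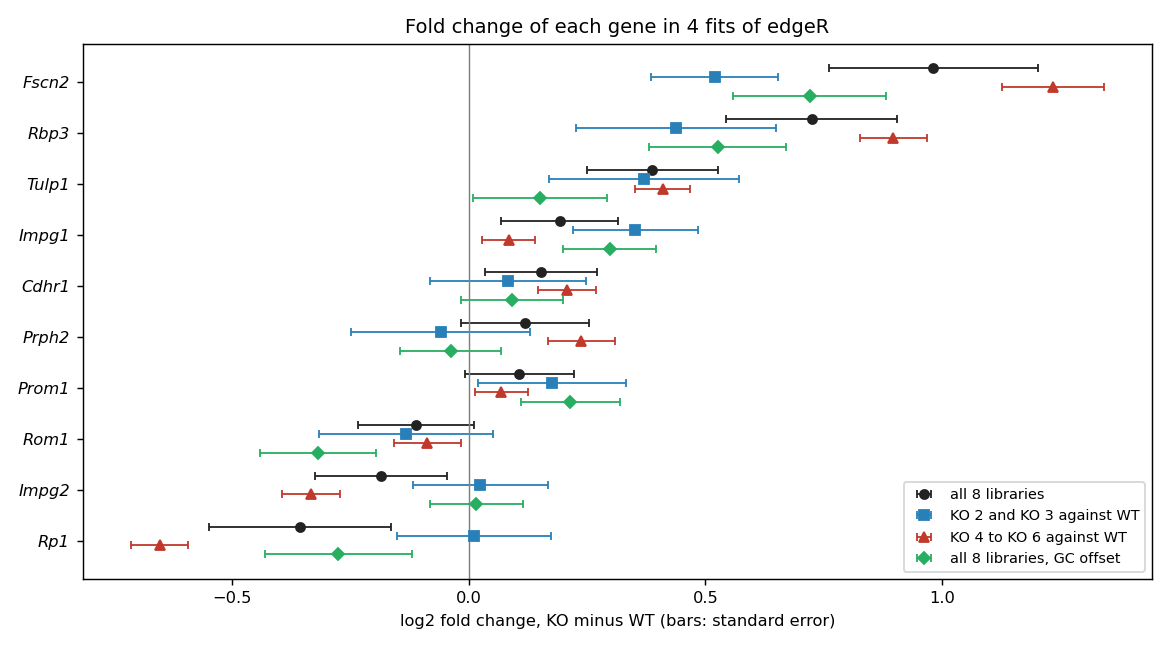
Log2 fold change, KO minus WT (horizontal axis), with its standard error for the 10 genes in 4 edgeR fits: all 8 libraries, KO 2 and KO 3 against WT, KO 4 to KO 6 against WT, and all 8 libraries with an offset for GC content. Fscn2, Rbp3, Tulp1, Impg1, Cdhr1 and Prom1 lie above 0 in all 4 fits and Rom1 below 0 in all 4, while Rp1 lies at 0.01 for KO 2 and KO 3 and at -0.65 for KO 4 to KO 6.

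Fold changes moved with the GC content of transcripts over the tested genes with a GC value, and the 10 genes span 42.4% (Impg2) to 60.5% (Tulp1). In KO 4 to KO 6 against WT, the median log2 fold change was -0.38 over tested genes under 44% GC and 0.35 over those above 56%. In KO 2 and KO 3 against WT the same medians were -0.07 and 0.07. Among the 4 members with the highest GC content, Fscn2 (59.1%), Rbp3 (55.7%) and Tulp1 had positive fold changes, and Rom1 (57.1%) did not. Rp1 (45.7%), Prom1 (45.3%) and Impg1 (45.2%) have nearly the same GC content, and in KO 4 to KO 6 against WT their log2 fold changes were -0.65, 0.07 and 0.09. The part of GC content in the fold change of any single gene was not tested.

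With an offset for GC content in each library, Fscn2 was still called at a log2 fold change of 0.72 (SE 0.16; edgeR adjusted p-value 0.0277). Rbp3 was at 0.53 (SE 0.15) and not called (edgeR adjusted p-value 0.0560). The offset fit called 6.79% of the 18028 genes with a GC value, and 8.38% of the same genes were called without it. Tulp1 moved from 0.39 to 0.15, Rom1 from -0.11 to -0.32 and Impg1 from 0.19 to 0.30, and none of these 3 was called. Prph2 and Impg2 changed sign, to -0.04 and 0.02.

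**Figure D4:**
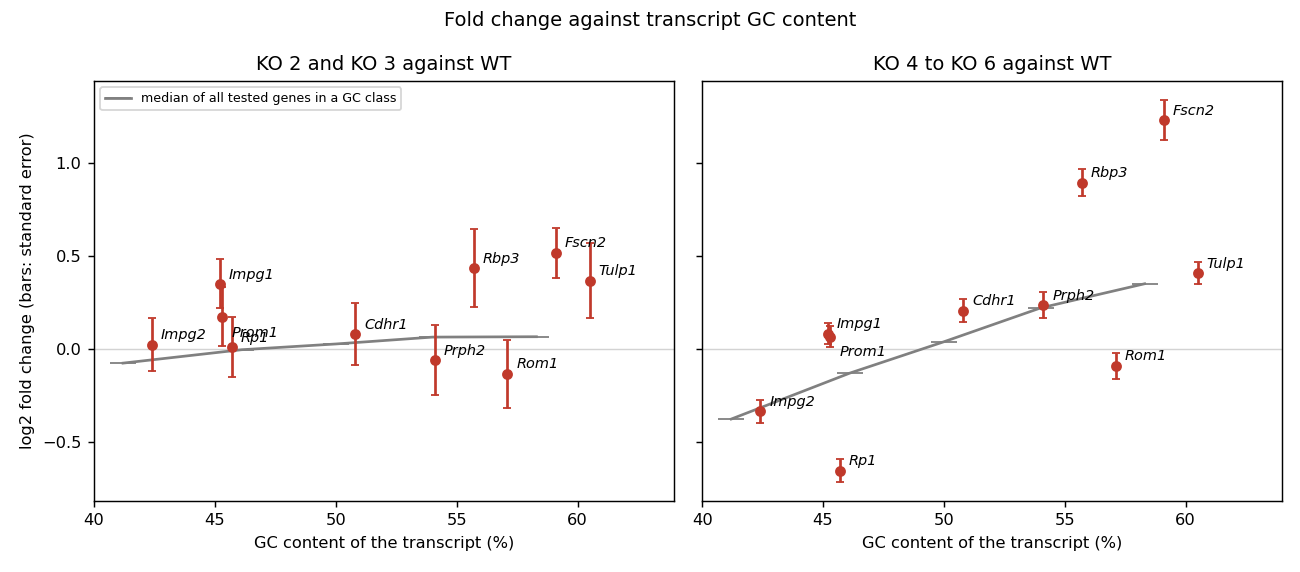
Log2 fold change with its standard error (vertical axis) against the GC content of the principal transcript in percent (horizontal axis) for the 10 genes (red), in KO 2 and KO 3 against WT (left) and KO 4 to KO 6 against WT (right). Grey marks give the median over tested genes with a GC value in 5 GC classes, drawn at the median GC content of each class. They run from -0.38 to 0.35 on the right and from -0.07 to 0.07 on the left.

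Other genes of the disc, of the same protein families and of the matrix were read from 3 lists. Of their 43 tested genes together 4 were called, 3 higher and 1 lower, which is near the 7.58% called over all tested genes. Among 18 disc companions, all tested, 1 was called, and it was lower; the median log2 fold change was 0.04. The gene was Rpgrip1, a scaffold of the connecting cilium. It was at 1328, 1114 and 1275 CPM in WT and at 606, 961, 805, 778 and 895 CPM in KO 2 to KO 6. Every library labelled KO lay below every WT library. Rpgrip1 fell from a mean of 1239 ± 111 CPM (SD, n = 3) to 809 ± 135 CPM (SD, n = 5; log2 fold change -0.62, SE 0.15, edgeR adjusted p-value 0.0349).

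Among the 17 relatives of the 10 genes, 10 were tested and 2 were called, both higher, beside a median log2 fold change of 0.18. Fscn1, the widely expressed fascin, was at 64.5, 64.1 and 62.2 CPM in WT and at 82.4, 69.9, 92.3, 105 and 112 CPM in KO 2 to KO 6. It rose in the libraries labelled KO with no overlap (log2 fold change 0.54, SE 0.14, edgeR adjusted p-value 0.0457). Tulp3, a tubby-like protein of cilia, was at 17.1, 12.6 and 14.4 CPM in WT and at 18.6, 21.2, 23.2, 23.9 and 21.8 CPM in KO 2 to KO 6. It rose as well, again with no overlap (log2 fold change 0.56, SE 0.13, edgeR adjusted p-value 0.0336).

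Of the 18 matrix and adhesion genes 15 were tested and 1 was called, higher, beside a median log2 fold change of 0.29. This was Mfge8, which links outer segment debris to phagocytes. It was at 168, 178 and 173 CPM in WT and at 416, 244, 353, 405 and 351 CPM in KO 2 to KO 6. KO 3 was again the lowest of the libraries labelled KO, and it too lay above WT. Mfge8 rose 2.05-fold (log2 fold change 1.03, SE 0.16, edgeR adjusted p-value 0.00863).

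In KO 2 and KO 3 against WT none of these 4 genes was called by edgeR (log2 fold changes -0.66 for Rpgrip1, 0.26 for Fscn1, 0.44 for Tulp3 and 0.93 for Mfge8; adjusted p-values 0.0721 to 0.206). With the GC offset the log2 fold change of Fscn1 was 0.28 (SE 0.08), beside 0.54 without it, and it was not called (edgeR adjusted p-value 0.0619). Scaling by library size alone ended the calls of Fscn1 and Tulp3 (edgeR adjusted p-values 0.0782 and 0.0633), and testing with no filter on low counts ended that of Fscn1 (0.0534). Over 18 fits without 1 library, or without a pair of those labelled KO, edgeR called Mfge8 in 14, Rpgrip1 and Fscn1 in 6 each, and Tulp3 in 5. Leaving out WT 1, WT 2, WT 3, KO 4, KO 5 or KO 6 alone ended the calls of Rpgrip1, Fscn1 and Tulp3, and leaving out WT 1, WT 2 or WT 3 ended that of Mfge8 (edgeR adjusted p-values 0.0550 to 0.0640).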

How the data were processed

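RNA was isolated from retina with a column kit and sequenced, per the labels' protocols. The authors deposited a table of raw counts per gene, whole numbers under Ensembl identifiers, in which no gene has fewer than 16 counts in total and 0 columns lack a sample. Trim Galore, Salmon 1.10.2, DESeq2 and the build GRCm38 are named in the submitters' processing notes, with no role. Salmon estimates counts, so reads shared between similar genes may be divided. Strand and annotation release are not given in the sources used here. The labels give individual mice but no litter or day, so p-values measure the spread between these libraries.

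GENCODE M21 (GRCm38), matched by Ensembl identifier, held 22121 of the 26824 genes. It gave positions and, from the coding transcript ranked first by APPRIS (then the longest), length and GC content. At most 0.14% of a member's 31-base words occur in another gene.

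Counts were filtered with filterByExpr, scaled by TMM and tested with edgeR 4.0.16 (glmQLFit, glmQLFTest) under R 4.3.3 on all 8 libraries with no covariate, adjusted by Benjamini-Hochberg. Each standard error is the size of the log2 fold change over the square root of F. Replicate numbers 2 and 3 recur in both groups, but titles alone give them, and they were not shown to pair libraries. The edgeR step was tested on simulated data. Alternatives were DESeq2 1.42.0, its size factors, library size alone, no filter, limma voom 3.58.1 with quality weights, robust estimation, lens genes removed, an offset from a natural spline of GC content (5 degrees of freedom), and fits leaving out libraries. Named are the 10 genes, Kcnv2, called genes of the 3 lists (up to 6 a list) and some cell type markers. The 5 motifs were all searched, and those in capitals were picked after the matches were seen. The members and lists were chosen with earlier results of these data known.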

Additional observations from a re-analysis of the deposited data

Results flagged for a closer look

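Among the 5 libraries labelled KO, Rbp3 in KO 3 stood apart: it was at 2866 CPM, where KO 2, KO 4, KO 5 and KO 6 lay at 4576 to 5489 CPM. On the log2 scale the gap below KO 2 was 0.720 of the whole range, just past the limit of 0.710 for 5 libraries. In all, 12 values were examined in this way (the 10 genes and both ratios), and chance passes about 0.05 of them. KO 3 was also the library in which lens markers took 5.09% of counts and in which rod markers took their lowest share, 3.63%. Their part in the level of Rbp3 was not tested. With lens genes removed the log2 fold change of Rbp3 was 0.73 (edgeR adjusted p-value 0.0453), and without KO 3 it was 0.86.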

How the results depend on the processing

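Which libraries were used mattered most. Leaving out 1 library, or a pair of those labelled KO, gave 118 to 8416 genes called, 0 to 7 of the 10 members and 0 to 32 of the 43 tested genes of the 3 lists, where all libraries gave 1529, 2 and 4. The fewest genes were called without KO 4 and KO 5, and the most without KO 2 and KO 3, the fit that sets KO 4 to KO 6 against WT. With KO 2 and KO 3 as the libraries labelled KO, edgeR called 180 genes, 0 members and 0 list genes, while 2 members, 9 list genes and 19% of all tested genes had an unadjusted p-value under 0.05. The DESeq2 test gave 3127 of 20167 tested genes, 3 members (Tulp1 beside Fscn2 and Rbp3) and 9 list genes. Limma voom with quality weights gave 8248 of 20167 tested genes, 28 list genes and Kcnv2 lower (-0.36). It called 6 members, with Fscn2, Rbp3, Tulp1 and Cdhr1 higher and Rp1 and Impg2 lower. With library size alone 1 member and 2 list genes were called, and 566 of 1353 called genes were higher, beside 956 of 1529 after TMM. With no filter on low counts, and with the GC offset, 1 member was called, and Rbp3 was the one lost in all 3 settings. With lens genes removed 6 list genes were called. Over all 29 alternatives the log2 fold changes of Fscn2 (0.42 to 1.23, adjusted p-values 4.6e-06 to 0.378) and Rbp3 (0.37 to 0.90, adjusted p-values 2.46e-06 to 0.709) kept their sign, and Fscn2 was called in 14 and Rbp3 in 11. Among the members, 3 changed sign, none of them called by the main edgeR fit, while limma voom called Rp1 and Impg2 lower. In KO 2 and KO 3 against WT the log2 fold changes were -0.059 for Prph2, 0.011 for Rp1 and 0.025 for Impg2, and with the GC offset they were -0.038 for Prph2 and 0.016 for Impg2. The cause was not tested.

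Replicate numbers 2 and 3 occur in both groups, and no label says that they pair animals. Once group means were subtracted, libraries sharing a number had correlations of -0.00442 and -0.241 across genes. With the replicate block these 4 libraries gave 52 genes, 0 members and 1 list gene by edgeR, against 14, 0 and 0 without the block, and 1 member and 5 list genes had an unadjusted p-value under 0.05 in each fit, beside 9.93% of all tested genes with the block and 11.4% without it. Prph2 was at -0.115 with the block and -0.096 without it, and Impg2 at 0.003 without it. The members had at least 1281 counts in each library, and the part of depth in the calls was not tested.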
